A study of Mus musculus with 12 samples.

Results

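The genes described here are 4 elongases of very long chain fatty acids (Elovl1, Elovl2, Elovl3 and Elovl5) and 3 fatty acid desaturases (Fads1, Fads2 and Fads3). A locus was taken when its gene column, read as comma-separated symbols, held one of these names, which gave 7 of the 27109 loci in the authors' deposited table. Each of the 7 symbols stood alone at its locus, and all 7 had a valid test in every comparison used. Poly(A) RNA of C57BL/6 mouse livers was sequenced in 12 libraries, 3 in each of 4 groups. The groups were LsATF4-KO livers 6 h after 1 mg/kg tunicamycin, wild-type livers 6 h after 1 mg/kg tunicamycin, LsATF4-KO livers 6 h after 0.3% DMSO and wild-type livers 6 h after 0.3% DMSO, all given by intraperitoneal injection. LsATF4-KO mice lack Atf4 in the liver. Atf4 encodes a transcription factor that is made under endoplasmic reticulum (ER) stress, and tunicamycin causes such stress by blocking N-linked glycosylation. The labels state neither the promoter that drives the deletion nor the age and sex of the mice. The knockout DMSO group had lane 5 to itself, with its 3 libraries, while 9 libraries shared lane 4. Where that group enters a comparison, lane and group cannot be told apart.

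Elongases and desaturases sit in the ER membrane and turn dietary and newly made fatty acids into longer and more unsaturated ones. Fads2 puts the first new double bond into linoleic and alpha-linolenic acid, Elovl5 lengthens the product, Fads1 adds the double bond that gives arachidonic and eicosapentaenoic acid, and Elovl2 lengthens these further on the way to docosahexaenoic acid. In liver the genes of this polyunsaturated route are known targets of SREBP-1c and PPARalpha. Elovl1 and Elovl3 act instead on saturated and monounsaturated chains. Elovl1 supplies very long chains for sphingolipids. Elovl3 is known for its high level in cold-exposed brown fat and, in mouse liver, for a daily rhythm and a higher level in males than in females.

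Levels are in FPKM, which counts fragments relative to transcript length and to library size, with 1 value per locus and group, so no SD between libraries can be given. A gene is said to have risen or fallen, or to be higher or lower, when the q-value of the authors' deposited table was under 0.05 with a valid test. Since FPKM is per length, levels may be set side by side between genes. In bulk liver RNA, fewer cells of a type and less RNA per cell cannot be told apart.

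The locus that holds Atf4 was merged with Cacna1i by the authors' assembly and had 114 FPKM in knockout and 356 FPKM in wild-type livers with tunicamycin, and 22.8 FPKM in knockout and 46.9 FPKM in wild-type livers with DMSO, in the authors' deposited table. It rose with tunicamycin in the knockout (log2 fold change 2.32, q = 0.000396) and in wild type (2.92, q = 0.0227). With tunicamycin it was lower in knockout than in wild-type livers (-1.64, q = 0.000396), and with DMSO it was not called between them (q = 0.270). The level of this merged locus does not by itself show how much Atf4 was lost. Of 12 hepatocyte markers, 11 were found, and their summed level was 10086, 12215, 16984 and 20473 FPKM in the knockout tunicamycin, wild-type tunicamycin, knockout DMSO and wild-type DMSO groups of the authors' deposited table. Alb is listed there at 0 in every group with a status that marks too much data for an estimate. Markers of other tissues stood out in the knockout tunicamycin group: adrenal cortex markers summed to 1417 FPKM against 62.9 to 85.1 in the other groups, skeletal muscle markers to 368 FPKM against 1.76 to 5.37, and white and brown fat markers to 297 FPKM against 24.9 to 38.7, in the authors' deposited table. Sinusoidal endothelial markers summed to 146, 195, 237 and 155 FPKM, stellate cell markers to 238, 239.8, 268 and 239 FPKM, macrophage markers to 348, 362, 422 and 410 FPKM and cholangiocyte markers to 29.3, 24.7, 58.4 and 46.8 FPKM, in the same order of groups. Xist, the transcript of the inactive X chromosome, summed to 101 to 130 FPKM per group, and the highest of 4 Y-linked genes reached 0.00893 FPKM in any group, values looked up after the other results were seen.

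The genes fall into an abundant polyunsaturated route and a sparse remainder. Fads2 was the most abundant of the 7 in every group, with 255 FPKM in knockout and 171 FPKM in wild-type livers with tunicamycin, and 429 FPKM in knockout and 452 FPKM in wild-type livers with DMSO, in the authors' deposited table. In each group, Fads1, Fads2, Elovl2 and Elovl5 lay above 97.0% of all loci by level. Elovl1 had between 14.6 and 25.4 FPKM in the authors' deposited table, Fads3 between 2.51 and 3.57 FPKM, and Elovl3 between 0.677 and 5.41 FPKM. With DMSO, the members in order of level in wild-type livers were Fads2, Elovl2, Fads1, Elovl5, Elovl1, Fads3 and Elovl3. The wild-type DMSO levels of Elovl2 (257 FPKM) and Fads1 (256 FPKM) were almost equal in the authors' deposited table. The highest group value was 7.99 times the lowest for Elovl3, 2.63 times for Fads2, 2.33 times for Elovl2, 2.28 times for Fads1 and 1.23 times for Elovl5.

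**Figure D1:**
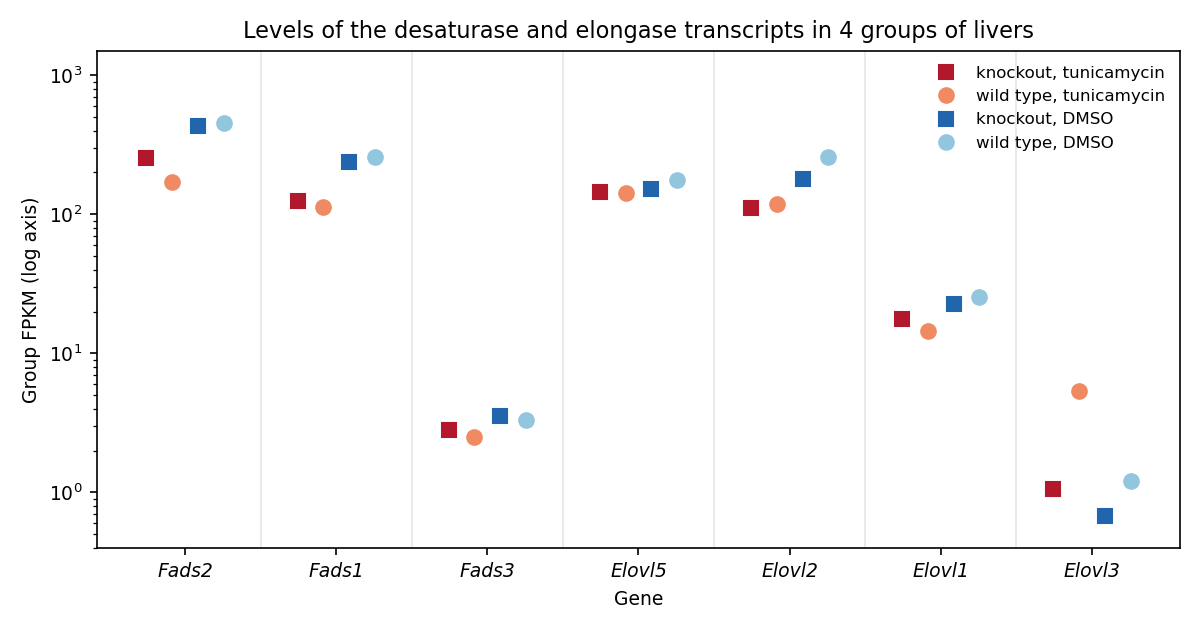
Group FPKM of the 7 genes on a log axis, with 1 point per group of 3 libraries and no error bar, since only group values were used. Every gene but Elovl3 has both tunicamycin points below both DMSO points, and Elovl5 has all 4 points between 142 and 176 FPKM. Elovl3 has 1 point, wild type with tunicamycin at 5.41 FPKM, far above its other 3.

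The promoters of Elovl5 and Fads2 are shown because they belong to the most abundant elongase with no call and to the desaturase with the largest fall. Both sequences are the 250 bases before the start of transcription in the RefSeq promoter table of build GRCm38.p6, read 5′ to 3′ on the gene's strand. Capitals mark exact matches on either strand to CCAAT (bound by NF-Y, a partner of SREBP), to CACGTG (an E-box) or to TGATGNAA (the ATF4 and C/EBP composite element). The first is at chr9:77917115-77917364 on the plus strand and the second at chr19:10101504-10101753 on the minus strand.
Elovl5: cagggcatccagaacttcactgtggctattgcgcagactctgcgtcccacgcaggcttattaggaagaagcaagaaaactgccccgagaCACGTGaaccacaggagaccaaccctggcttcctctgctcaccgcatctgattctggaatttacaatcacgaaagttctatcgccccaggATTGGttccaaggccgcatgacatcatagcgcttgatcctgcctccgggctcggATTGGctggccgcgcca
Fads2: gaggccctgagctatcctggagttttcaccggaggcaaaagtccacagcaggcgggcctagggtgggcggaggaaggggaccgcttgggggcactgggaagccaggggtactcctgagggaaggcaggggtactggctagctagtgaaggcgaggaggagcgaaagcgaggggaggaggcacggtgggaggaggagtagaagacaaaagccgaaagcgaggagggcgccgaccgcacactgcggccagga
The Elovl5 window held CCAAT in its reverse form at 71 and 17 bases before the start and CACGTG at 161 bases before it. The Fads2 window held none of these letters. In the GENCODE annotation Fads2 starts at chr19:10101746, inside this window, so most of the window lies within the gene as annotated there. The bases before that GENCODE start were thus mostly not read. Among all 32851 promoter windows of this length, 33.8% held CCAAT, 6.02% CACGTG and 3.45% TGATGNAA. Entries were found for 5 of the 7 genes. Fads3 held CCAAT at 106 and 78 bases before its start, Elovl1 at 35 bases before the first of its starts, and both windows of Elovl2 held none of these letters. TGATGNAA was in none of the windows of these 5 genes. Elovl3 and Fads1 had no entry.

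The desaturases form a cluster on chromosome 19. In the GENCODE annotation of GRCm38, Fads1 and Fads2 run away from each other with starts 81142 bases apart, and Fads3 and Fads2 run towards each other with ends 2654 bases apart. The authors' assembly placed Fads2 and Fads3 in 1 mm9 interval, chr19:10116037-10196745, and the counting is not stated to use strand. Fads2 was between 68.3 and 136 times as abundant as Fads3 in the authors' deposited table. Whether fragments of Fads2 entered the Fads3 value was not tested, and the Fads3 value is uncertain for this reason.

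Tunicamycin in wild-type livers lowered the polyunsaturated route except Elovl5, lowered Elovl1 and raised Elovl3. Of the 7 genes, 4 fell and 1 rose in the authors' deposited table. There, 37.1% of 14998 tested loci were called, 19.0% lower and 18.1% higher, and of the tested loci that reached 100 FPKM in either group 45.9% were lower. The median log2 fold change was -0.80 over the 7 genes and -0.02 over all tested loci of the authors' deposited table, and -0.56 over those that reached 100 FPKM.

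Fads2, the first desaturase of the route, had 171 FPKM in tunicamycin-treated and 452 FPKM in DMSO-treated wild-type livers in the authors' deposited table. Its log2 fold change was -1.40 (rebuilt 95% interval -1.92 to -0.87, q = 0.000396 in the authors' deposited table), a 2.63-fold fall. The interval comes from a standard error rebuilt as the size of the fold change over the deposited statistic, after that statistic was scaled to the deposited p-values. Fads1, the later desaturase, fell with a log2 fold change of -1.19 (q = 0.000396 in the authors' deposited table), to 113 FPKM with tunicamycin against 256 FPKM with DMSO. Elovl2, which acts after Fads1, fell with a log2 fold change of -1.12 (q = 0.000396 in the authors' deposited table), to 118 FPKM against 257 FPKM. These 3 genes were each lower by more than 2-fold.

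Elovl5, the elongase between both desaturases, had 142 FPKM in tunicamycin-treated and 176 FPKM in DMSO-treated wild-type livers, a log2 fold change of -0.30 with q = 0.341 in the authors' deposited table. Its rebuilt interval was -0.72 to 0.11, which leaves out a fall of the size of Fads2. The ratio of Fads2 to Elovl5 levels was 1.20 with tunicamycin against 2.57 with DMSO in wild-type livers of the authors' deposited table. Elovl1, the elongase of saturated chains, fell to 14.6 FPKM with tunicamycin against 25.4 FPKM with DMSO, a log2 fold change of -0.80 (q = 0.00171 in the authors' deposited table). Fads3, which acts on sphingoid bases, had 2.51 FPKM with tunicamycin and 3.31 FPKM with DMSO, a log2 fold change of -0.40 with a rebuilt interval of -3.19 to 2.39 (q = 0.929 in the authors' deposited table). That interval is too wide to place Fads3 on either side.

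Elovl3 went the other way. It had 5.41 FPKM in tunicamycin-treated and 1.21 FPKM in DMSO-treated wild-type livers, a 4.46-fold rise (log2 fold change 2.16, rebuilt 95% interval 1.45 to 2.87, q = 0.000396 in the authors' deposited table). Even so it made up 0.954% of the summed FPKM of the 7 genes in wild-type livers with tunicamycin, against 0.104% with DMSO.

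In knockout livers, tunicamycin lowered 3 abundant genes, Fads1, Fads2 and Elovl2, while the other 4 passed no threshold. These 3 falls stand beside 33.0% of 15534 tested loci called in this comparison of the authors' deposited table, 14.8% of them in the lower direction, and 40.4% lower among loci that reached 100 FPKM. The median log2 fold change of the 7 genes was -0.34, against 0.01 over all tested loci of the authors' deposited table. Over the loci that reached 100 FPKM it was -0.44, lower than that of the 7 genes.

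Fads1 fell with a log2 fold change of -0.91 (q = 0.000396 in the authors' deposited table), to 126 FPKM in knockout livers with tunicamycin against 236 FPKM with DMSO. Fads2 fell to 255 FPKM with tunicamycin against 429 FPKM with DMSO in knockout livers, a log2 fold change of -0.75 (rebuilt interval -1.30 to -0.20, q = 0.0321 in the authors' deposited table). For Elovl2 the levels were 110 FPKM with tunicamycin and 180 FPKM with DMSO in knockout livers, a log2 fold change of -0.71 (q = 0.00527 in the authors' deposited table). In knockout livers these 3 falls lay between 1.63-fold and 1.88-fold. The knockout tunicamycin group also had high adrenal, muscle and fat markers, whose part in these values was not tested.

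Elovl1 had 17.8 FPKM with tunicamycin and 22.5 FPKM with DMSO in knockout livers, a log2 fold change of -0.34 (q = 0.265 in the authors' deposited table). Elovl5 had 146 FPKM with tunicamycin and 153 FPKM with DMSO, a log2 fold change of -0.07 with a rebuilt interval of -0.48 to 0.34 (q = 0.883 in the authors' deposited table). Fads3 had 2.84 FPKM with tunicamycin and 3.57 FPKM with DMSO, with q = 0.921 in the authors' deposited table. Elovl3 had 1.06 FPKM with tunicamycin and 0.677 FPKM with DMSO in knockout livers, a log2 fold change of 0.65 with a rebuilt interval of -0.22 to 1.53 (q = 0.318 in the authors' deposited table).

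With tunicamycin, Elovl3 was lower in knockout than in wild-type livers, and no other of the 7 genes was called between them. All libraries of this comparison shared lane 4. That single lower gene stands beside 5.92% of 14919 tested loci called in the authors' deposited table, 2.19% of them in the lower direction. Elovl3 had 1.06 FPKM in knockout and 5.41 FPKM in wild-type livers with tunicamycin, a log2 fold change of -2.35 (rebuilt 95% interval -3.07 to -1.63, q = 0.000396 in the authors' deposited table). It was 5.09-fold lower in the knockout. With a pseudocount of 1 FPKM, which weighs on low genes, the log2 fold change was -1.63 here and 1.53 for tunicamycin in wild type.

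Fads2 had 255 FPKM in knockout and 171 FPKM in wild-type livers with tunicamycin, a log2 fold change of 0.57 with a rebuilt interval of 0.08 to 1.06, p = 0.0202 and q = 0.0735 in the authors' deposited table. This did not pass the threshold, and the part of the other-tissue markers of the knockout group in it was not tested. Fads2 was 1 of 2 members with an unadjusted p under 0.05, beside 10.4% of all tested loci in the authors' deposited table, and Elovl3 was the other. The remaining 5 had log2 fold changes of knockout over wild-type between -0.10 for Elovl2 and 0.28 for Elovl1, with q of at least 0.407 in the authors' deposited table. For Elovl5 the rebuilt interval of this comparison was -0.37 to 0.44, for Fads1 -0.25 to 0.56 and for Elovl2 -0.51 to 0.31, so that changes of 2-fold lay outside all 3 intervals. The 2-fold bound was inside the interval of Fads2 and of Fads3.

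Without tunicamycin, no member passed the threshold between knockout and wild-type livers. This 0 of 7 by the deposited Cuffdiff test stands beside 2.86% of 14788 tested loci called in the authors' deposited table, and 1 member had an unadjusted p under 0.05, as did 7.13% of all tested loci. That member was Elovl2, with 180 FPKM in knockout and 257 FPKM in wild-type livers with DMSO (log2 fold change -0.52, p = 0.0313 and q = 0.105 in the authors' deposited table). Elovl3 had 0.677 FPKM in knockout and 1.21 FPKM in wild-type livers with DMSO, a log2 fold change of -0.84 with a rebuilt interval of -1.71 to 0.02 (q = 0.160 in the authors' deposited table). For Elovl1, Elovl5, Fads1 and Fads2 the log2 fold changes lay between -0.20 and -0.08 in the authors' deposited table. Fads3 had a log2 fold change of 0.11 with a rebuilt interval of -2.67 to 2.89 around the authors' deposited value. Lane 5 held every knockout DMSO library, so lane and genotype cannot be told apart here.

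**Figure D2:**
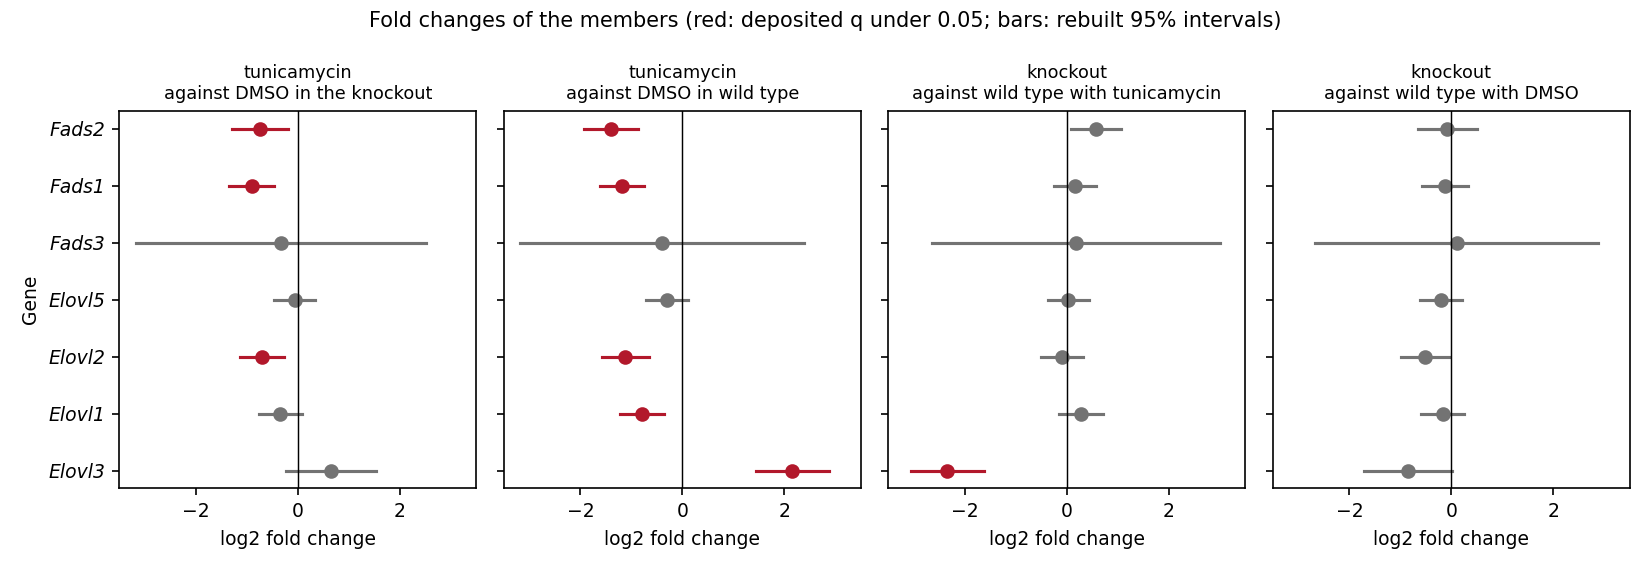
Log2 fold changes of the 7 genes in the 4 comparisons, with rebuilt 95% intervals as bars, red for a deposited q under 0.05 and grey otherwise. Red points below 0 mark 3 genes for tunicamycin in the knockout and 4 in wild type, and Elovl3 is red above 0 for tunicamycin in wild type (2.16) and below 0 for knockout against wild type with tunicamycin (-2.35).

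Whether the response to tunicamycin differed between genotypes was tested as the difference of both log2 fold changes, knockout minus wild type, over 14510 loci tested in both. No member had an adjusted p under 0.05 by this normal test on rebuilt standard errors with Benjamini-Hochberg adjustment, while 1.01% of all loci did, and 1 member had an unadjusted p under 0.05 beside 5.26% of all loci. The difference for Elovl3 was -1.50 (SE 0.58, 95% interval -2.63 to -0.38, q = 0.372 over all loci), from 0.65 in the knockout and 2.16 in wild type. Fads2 had a difference of 0.65 (95% interval -0.11 to 1.40). For Elovl1, Elovl2, Fads1 and Elovl5 the differences were 0.45, 0.42, 0.28 and 0.23, and all 4 intervals held 0. The single comparisons share groups of libraries and are not independent of each other. Elovl1 passed the threshold with tunicamycin in wild type and not in the knockout, yet its responses were not shown to differ.

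The summed level of the 3 desaturases was 383 FPKM in knockout and 286 FPKM in wild-type livers with tunicamycin, and 668 FPKM in knockout and 711 FPKM in wild-type livers with DMSO, in the authors' deposited table. The 4 elongases summed to 275 FPKM in knockout and 281 FPKM in wild-type livers with tunicamycin, and to 356 FPKM in knockout and 460 FPKM in wild-type livers with DMSO, in the authors' deposited table. These sums carry no test, and the order of knockout and wild type turned round for the desaturase sums with DMSO and for the elongase sums with tunicamycin when the 10 most abundant loci were left out of the scaling. Fads2 held 38.7% of the members' sum in knockout and 30.2% in wild-type livers with tunicamycin, against 41.9% in knockout and 38.6% in wild-type livers with DMSO. Elovl5 held 22.1% in knockout and 25.1% in wild-type livers with tunicamycin, against 14.9% in knockout and 15.0% in wild-type livers with DMSO. The ratio of Elovl5 to Elovl2 levels was 1.32 and 1.20 in knockout and wild-type livers with tunicamycin, against 0.847 and 0.682 in knockout and wild-type livers with DMSO. With DMSO, Elovl2 was thus the more abundant of this pair, and with tunicamycin Elovl5 was.

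Among themselves the members were compared by the root mean square distance of their log2 FPKM, each centred over the 4 groups, which describes 4 points per gene and carries no test. Fads1 and Fads2 lay closest, together with the pairs Elovl1 and Fads3 and Elovl5 and Fads3, each at 0.15 log2 units. Elovl3 lay farthest from each other member, at 1.18 to 1.63 log2 units. Among 8089 loci that could be ranked, the nearest to Fads2 were Adh1 (alcohol dehydrogenase), Sdc1 (syndecan) and Tuba4a, and the nearest to Fads1 were Nln, Fas and Cox20. Nearest to Elovl2 were Lypla1, Uqcrq and Bri3, to Elovl5 Aurkaip1, Ywhae and Pepd, to Elovl1 Rap2a, Pigk and Yaf2, and to Fads3 Sdsl, Samm50 and Prrc2b. All of these neighbours lay within 0.04 log2 units of their member.

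Elovl3 had no neighbour as close. The nearest was Psph, which makes serine from phosphoserine, at 0.18 log2 units, followed by Gm10436 at 0.33 and Krt23, a keratin, at 0.37. Psph had 3.79 FPKM in knockout and 14.3 FPKM in wild-type livers with tunicamycin, and 2.48 FPKM in knockout and 3.94 FPKM in wild-type livers with DMSO, in the authors' deposited table. Like Elovl3, it was highest in wild-type livers with tunicamycin and lowest in knockout livers with DMSO.

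**Figure D3:**
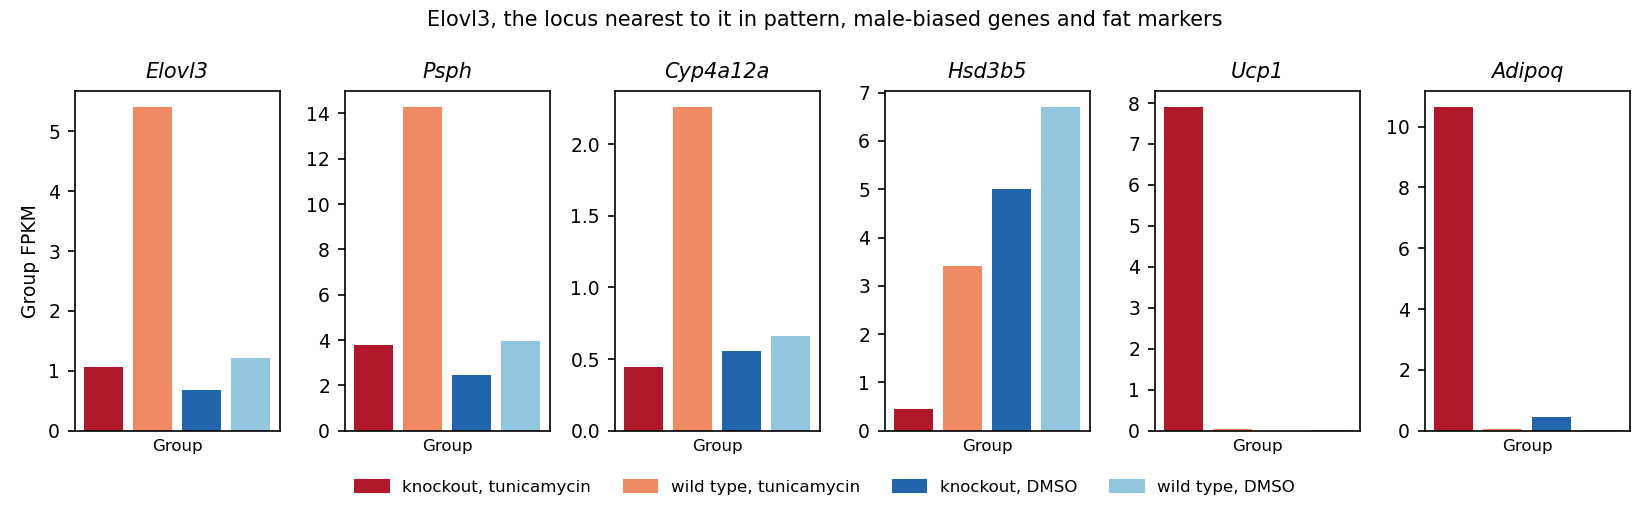
Group FPKM on linear axes from 0 for Elovl3, for its nearest locus in pattern, for 2 male-biased liver genes and for 2 fat markers, with 1 bar per group of 3 libraries and no error bar. The tallest Elovl3 bar is wild type with tunicamycin (5.41 FPKM), as for Psph (14.3) and Cyp4a12a (2.26), while Hsd3b5 is tallest in wild type with DMSO (6.71) and Ucp1 (7.91) and Adipoq (10.7) are tallest in the knockout with tunicamycin.

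Other genes known for settings in which Elovl3 is expressed were read beside it. The counts of called genes in this and the later lists stand beside shares over all tested loci of the authors' deposited table. With tunicamycin, 14.8% fell and 18.1% rose in the knockout, and 19.0% fell and 18.1% rose in wild type. Between knockout and wild-type livers with tunicamycin, 5.92% were called, and 2.19% were lower. Cyp4a12a, a male-biased fatty acid hydroxylase, had 0.445 FPKM in knockout and 2.26 FPKM in wild-type livers with tunicamycin, a log2 fold change of -2.35 (q = 0.000396 in the authors' deposited table). It rose with tunicamycin in wild type (log2 fold change 1.78, q = 0.00171 in the authors' deposited table) and passed no threshold in the knockout (-0.32). Of 14 tested male-biased liver genes, 3 rose and 6 fell with tunicamycin in wild type, 1 rose and 6 fell in the knockout, and 4 were lower and 0 higher in knockout than in wild-type livers with tunicamycin, by the authors' deposited Cuffdiff table, where 6 of the 14 had an unadjusted p under 0.05 in that last comparison. Among those 4, the call of Cyp7b1 did not hold with p-values adjusted within the comparison alone (q = 0.0855). Of 16 female-biased genes, 10 fell and 0 rose with tunicamycin in wild type, 8 fell and 1 rose in the knockout, and 1 was lower and 2 were higher in knockout than in wild-type livers with tunicamycin, by the same Cuffdiff table, with 10 of 16 at an unadjusted p under 0.05 in the first.

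Of 14 fat markers, 13 had their highest value in the knockout tunicamycin group, with Adrb3 the exception. Of 11 tested between knockout and wild-type livers with tunicamycin, 5 were higher and 0 lower in the authors' deposited Cuffdiff table, with 8 at an unadjusted p under 0.05. Cfd (adipsin), Fabp4 and Cidec were among the 5, while Ucp1 and Adipoq, named here as defining markers, were not called in this comparison. Both rose with tunicamycin against DMSO in the knockout (q = 0.000396 for both in the authors' deposited table). Ucp1, which defines brown fat, had 7.91 FPKM in knockout and 0.0299 FPKM in wild-type livers with tunicamycin, and Adipoq, the adiponectin gene, had 10.7 and 0.0641 FPKM in the same order, in the authors' deposited table. Elovl3 was lower in the group where these markers were high. Their part in the Elovl3 result was not tested. The mapped interval of Elovl3, chr19:46206388-46222815 in mm9, also holds Pitx3, which stood between 0 and 0.0875 FPKM in the authors' deposited table. The Elovl1 interval, chr4:118100697-118109948, also holds the cell cycle gene Cdc20, at 1.21 to 2.34 FPKM in the authors' deposited table. Next to the Fads1 interval, but not in it, lies that of Tmem258, with 156 FPKM in knockout and 152 FPKM in wild-type livers with tunicamycin, and 79.8 FPKM in knockout and 82.4 FPKM in wild-type livers with DMSO, in the authors' deposited table. These levels were thus high where those of Fads1 were low. Of the core clock, which drives daily rhythms in liver, 5 of 15 tested genes rose and 6 fell with tunicamycin in the knockout, and likewise 5 rose and 6 fell in wild type, in the authors' deposited table. Arntl had 7.13 FPKM in knockout and 10.8 FPKM in wild-type livers with tunicamycin, against 0.863 FPKM in knockout and 0.828 FPKM in wild-type livers with DMSO, in the authors' deposited table. The part of clock genes and of male-biased genes in the Elovl3 result was not tested.

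Other elongases and desaturases were read beside the members, and of 4 tested loci 1 fell and 2 rose in the knockout and 1 fell and 1 rose in wild type with tunicamycin, in the authors' deposited table. Elovl6, which lengthens palmitate, fell with tunicamycin by log2 fold changes of -0.90 in the knockout and -0.53 in wild type (q = 0.000396 and q = 0.0429 in the authors' deposited table). Elovl7 had 1.81 FPKM in knockout and 1.48 FPKM in wild-type livers with tunicamycin, against 0.135 FPKM in knockout and 0.138 FPKM in wild-type livers with DMSO, a rise with log2 fold changes of 3.75 and 3.43 in the authors' deposited table. Scd1, the main stearoyl-CoA desaturase of liver, had 938 FPKM in knockout and 1249 FPKM in wild-type livers with tunicamycin, and 1324 FPKM in knockout and 1750 FPKM in wild-type livers with DMSO, with no call in the authors' deposited table. Its level exceeded that of Fads2 in each group. Scd2, merged with Scd3 in the assembly, had 14.8 FPKM in knockout and 2.21 FPKM in wild-type livers with tunicamycin (log2 fold change 2.75, q = 0.000396 in the authors' deposited table). It is a desaturase of fat and brain, and it was high in the group in which fat, muscle and adrenal markers were high, whose part in the result was not tested.

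The other steps of the elongation cycle were read in the same way. Of 6 tested genes, 0 rose and 2 fell in the knockout and 0 rose and 3 fell in wild type with tunicamycin, by the authors' deposited Cuffdiff table, with 2 and 4 at an unadjusted p under 0.05. Tecr, the last reductase of the cycle, had log2 fold changes of -0.72 in the knockout and -0.74 in wild type (q = 0.00108 and q = 0.00230 in the authors' deposited table). Hacd3, a dehydratase of the cycle, had -0.59 in the knockout and -1.10 in wild type (q = 0.0125 and q = 0.000396 in the authors' deposited table). Hsd17b12, the first reductase, and Hacd2, another dehydratase, had log2 fold changes between -0.46 and -0.32 with no call in the authors' deposited table.

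Of 6 tested electron donors, 2 fell and 1 rose in the knockout and 3 fell and 1 rose in wild type with tunicamycin, in the authors' deposited table. Cyb5r3, the reductase that passes electrons to cytochrome b5, fell by log2 fold changes of -0.74 in the knockout and -0.82 in wild type in the authors' deposited table. Cyb5, the cytochrome b5 that feeds the desaturases, had 912 FPKM with tunicamycin and 1393 FPKM with DMSO in knockout livers (q = 0.0577) and fell with a log2 fold change of -0.74 in wild type (q = 0.0149 in the authors' deposited table). Cyb5r1, another reductase of the family, rose by log2 fold changes of 2.63 in the knockout and 3.26 in wild type, and was lower in knockout than in wild-type livers with tunicamycin (-0.74, q = 0.00200 in the authors' deposited table).

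Srebf1 and Ppara, regulators of the route, fell with tunicamycin in both genotypes. Of 16 tested regulators of lipid synthesis, 10 fell and 3 rose in the knockout and 8 fell and 2 rose in wild type, in the authors' deposited table. Srebf1, the gene of SREBP-1, had 15.2 FPKM in knockout and 12.3 FPKM in wild-type livers with tunicamycin, against 98.5 FPKM in knockout and 77.4 FPKM in wild-type livers with DMSO, in the authors' deposited table. Its log2 fold changes were -2.69 in the knockout and -2.66 in wild type (q = 0.000396 for both in the authors' deposited table). Ppara, the gene of PPARalpha, fell by log2 fold changes of -2.14 in the knockout and -2.07 in wild type of the authors' deposited table. Nr1h3, the gene of LXRalpha, which raises Srebf1, fell by -0.57 and -0.83 in the knockout and in wild type, on the log2 scale of the authors' deposited table.

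Insig1, an SREBP target that holds SREBP in the ER, fell by log2 fold changes of -1.72 in the knockout and -1.77 in wild type, while its paralog Insig2 rose by 1.36 in the knockout and 1.31 in wild type, all with q = 0.000396 in the authors' deposited table. None of Srebf1, Ppara, Nr1h3, Insig1 and Insig2 was called between knockout and wild-type livers with either treatment in the authors' deposited table. Of the 16 regulators, Mlxipl and Hnf4a were the 2 lower in knockout than in wild-type livers with tunicamycin, with log2 fold changes of -0.75 and -0.63 (q = 0.0110 and q = 0.0339 in the authors' deposited table). Neither call held with p-values of the authors' deposited table adjusted within the comparison alone (q = 0.0548 and q = 0.150). Mlxipl encodes ChREBP, the carbohydrate sensor of lipogenesis, and Hnf4a a master regulator of hepatocyte genes.

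**Figure D4:**
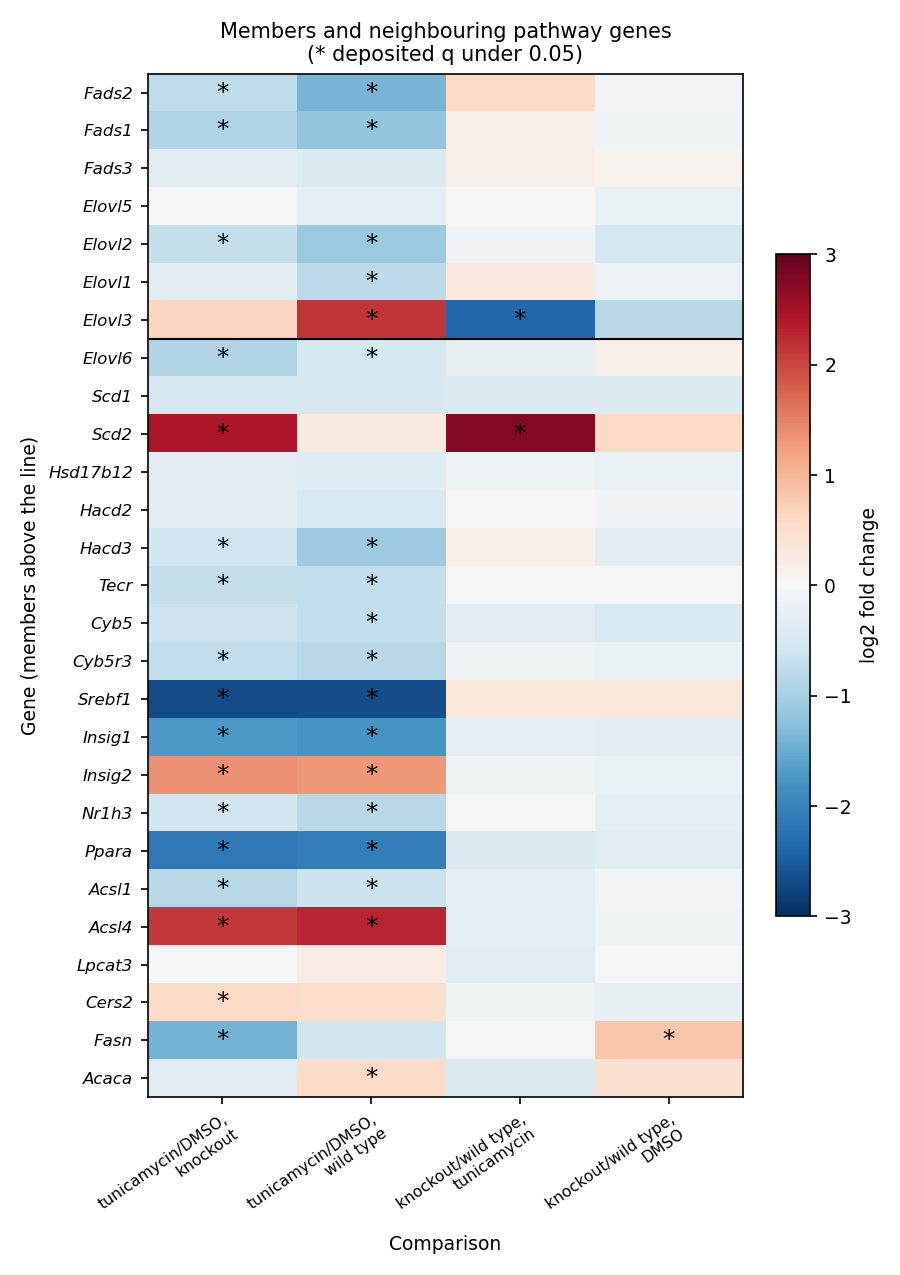
Log2 fold changes of the members (above the line) and of other genes of the pathway (below it) in the 4 comparisons, on a colour scale that stops at -3 and 3, with an asterisk for a deposited q under 0.05. Fads1, Fads2, Elovl2, Elovl6, Hacd3, Tecr, Cyb5r3, Srebf1, Insig1, Nr1h3, Ppara and Acsl1 carry an asterisk on a blue field in both tunicamycin columns, and among the members only Elovl3 carries one in a knockout against wild-type column.

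Genes of substrate supply were read next. Of 10 tested genes of malonyl-CoA and palmitate supply, 6 fell and 1 rose in the knockout and 4 fell and 2 rose in wild type with tunicamycin, in the authors' deposited table. There, 14.8% of all tested loci fell in the knockout and 19.0% in wild type, and 18.1% rose in each of both comparisons. Fasn, the fatty acid synthase, fell with a log2 fold change of -1.42 in the knockout (q = 0.000396) and had -0.55 in wild type (q = 0.0728 in the authors' deposited table). With DMSO it was higher in knockout (109 FPKM) than in wild-type livers (60.7 FPKM), a log2 fold change of 0.84 (q = 0.00985 in the authors' deposited table), and this call did not hold with p-values adjusted within the comparison alone (q = 0.161). Acaca, which makes malonyl-CoA, had 8.08 FPKM with tunicamycin and 10.2 FPKM with DMSO in knockout livers, with no call, and rose in wild type (log2 fold change 0.56, q = 0.0234 in the authors' deposited table). Acacb, the other acetyl-CoA carboxylase gene, fell from 30.2 to 5.88 FPKM in the knockout and from 27.0 to 4.08 FPKM in wild type. Its log2 fold changes were -2.36 and -2.73 (q = 0.000396 for both in the authors' deposited table). Thrsp, a gene induced by feeding that promotes lipogenesis, fell with log2 fold changes of -2.07 in the knockout and -0.85 in wild type, and was lower in knockout than in wild-type livers with tunicamycin (-0.76, q = 0.00171 in the authors' deposited table).

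Acyl-CoA synthetases activate the fatty acids that both enzyme families use. Of 9 tested genes 3 fell and 3 rose in the knockout, and of 8 tested genes 5 fell and 2 rose in wild type with tunicamycin, in the authors' deposited table. Acsl4, which prefers arachidonic acid, rose by log2 fold changes of 2.13 in the knockout and 2.29 in wild type, and Acsl1 fell by -0.83 and -0.65 in the same order, in the authors' deposited table. The arachidonate-preferring synthetase rose in the same livers in which Fads1, Fads2 and Elovl2 fell. Slc27a1, a fatty acid transporter and synthetase, rose with a log2 fold change of 0.64 in the knockout, fell with -0.75 in wild type, and was higher in knockout than in wild-type livers with tunicamycin (1.06, q = 0.000396 in the authors' deposited table). Its level was 5.82 FPKM in that knockout group, in which fat, muscle and adrenal markers were high, and 2.78 FPKM in wild type. The part of those markers in the Slc27a1 result was not tested.

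Few genes that use the products were called. Of 14 tested genes of phospholipid remodelling and ceramide synthesis 1 rose and 1 fell in the knockout, and of 13 tested 0 rose and 0 fell in wild type with tunicamycin, by the authors' deposited Cuffdiff table, with 2 at an unadjusted p under 0.05 in each. Over all tested loci, 33.0% were called in the knockout and 37.1% in wild type. Cers2, the ceramide synthase for the very long chains that Elovl1 makes, rose in the knockout with a log2 fold change of 0.57 (q = 0.0385) and had 0.52 in wild type (q = 0.0638 in the authors' deposited table). Lpcat3, which puts polyunsaturated chains into phospholipids, had 32.3 FPKM in knockout and 40.3 FPKM in wild-type livers with tunicamycin, and 33.9 FPKM in knockout and 34.6 FPKM in wild-type livers with DMSO, with no call in the authors' deposited table. Peroxisomes shorten the chain in the last step to docosahexaenoic acid. Of 16 tested peroxisomal genes 10 fell and 0 rose in the knockout and 11 fell and 0 rose in wild type with tunicamycin, by the authors' deposited Cuffdiff table, with 12 and 14 at an unadjusted p under 0.05. Over all tested loci, 14.8% fell in the knockout and 19.0% in wild type.

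ATF4 and CHOP target genes were read in the comparisons in which Elovl3 was called, and with tunicamycin in the knockout, where it was not. Their part in the Elovl3 result was not tested. Of 19 tested, 13 were lower and 0 higher in knockout than in wild-type livers with tunicamycin by the authors' deposited Cuffdiff table, with 15 at an unadjusted p under 0.05. Among these 13, the calls of Atf3, Vldlr and Slc7a5 did not hold with p-values adjusted within the comparison alone (q = 0.194, 0.142 and 0.204). Asns, which makes asparagine, had 2.60 FPKM in knockout and 15.5 FPKM in wild-type livers with tunicamycin in the authors' deposited table. The same 19 held 15 that rose and 1 that fell with tunicamycin in wild type, and of 18 tested 14 rose and 1 fell in the knockout, in the authors' deposited table.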

How the data were processed

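Poly(A) RNA of mouse liver was sequenced in 12 libraries. The submitters' processing notes name bcl2fastq, TopHat2 2.0.4, Cufflinks, Cuffdiff and the mouse build mm9. The annotation and the normalization between libraries are not stated there. Per the file headers, the authors' deposited table holds 1 FPKM value per locus and group. For each of 6 comparisons, of which 4 were used, the authors deposited the log2 fold change with a test statistic (a score), its p-value and its q-value. Library values and counts were not used here, so depth is unknown and no SD can be given. The deposited q-values equal a Benjamini-Hochberg adjustment over 90828 tests of all 6 comparisons, within 5.29e-07. Since the labels do not say that libraries came from separate mice, p-values may measure technical spread.

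Called loci have a deposited q under 0.05 and status OK. The standard error of a fold change was rebuilt as its size over the deposited statistic times 1.73 to 1.74, a scale set per comparison by the deposited p-values. The calculation was also run on data simulated with these standard errors under the same normal model. Such data cannot show whether that model fits the deposited statistics. The member genes and 20 lists of 246 genes, of which 244 matched, were chosen with earlier results of these data known. Named are all members, a fixed set of pathway genes called or not (1 of them is not reported here), up to 4 called genes of at least 1 FPKM per list and comparison with the largest changes, and the 3 loci nearest in pattern to each member among loci reaching 5 FPKM. Pitx3, Cdc20, Tmem258, Xist and the Y-linked genes lie outside this rule and were chosen after values were seen. Alternatives were other adjustments, thresholds, filters, centring, a pseudocount of 1 FPKM and rescaled FPKM. Computations used scipy 1.17.1, pandas 2.3.3 and numpy 2.4.6 under Python 3.11.15, with plots by matplotlib 3.10.9.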

Additional observations from a re-analysis of the deposited data

Results flagged for a closer look

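For 4 genes of the fixed lists the tunicamycin response differed between genotypes at an adjusted p under 0.05 by the normal test on rebuilt standard errors, with the difference given as knockout minus wild type on the log2 scale. Scd2, merged with Scd3, had a difference of 2.16, from 2.43 in the knockout and 0.27 in wild type in the authors' deposited table. Slc27a1 had 1.39, from 0.64 in the knockout and -0.75 in wild type. Both genes were high in the knockout tunicamycin group, in which fat, muscle and adrenal markers were high. The part of those tissues in both differences was not tested. Thrsp had -1.22, from -2.07 in the knockout and -0.85 in wild type. Hsd3b5, a male-biased steroid dehydrogenase, had -2.49, from -3.47 in the knockout and -0.98 in wild type. No elongase or desaturase of the 7 described met this rule.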

How the results depend on the processing

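No paired analysis was possible because the labels give no replicate numbers shared between groups and the authors' deposited table holds 1 value per group. For the same reason no library could be left out, and whether 1 library carries a group value, such as that of Elovl3 in wild type with tunicamycin, cannot be seen. All counts of called members kept within 1.5 times under the other adjustment, threshold, filter, centring, fold minimum and pseudocount, though at a q threshold of 0.01 Fads2 with tunicamycin in the knockout (-0.75) was no longer called. Called genes of the 8 pathway lists between knockout and wild type numbered 3 with DMSO and 8 with tunicamycin, against 0 and 4 with q-values adjusted within the comparison alone, where Abcd2, Ppargc1a and Fasn lost their call with DMSO and Cers5, Mlxipl, Hnf4a and Acacb with tunicamycin. The difference of responses called 19 loci without the scaled standard error, 84 of 11393 loci at 1 FPKM or more in every group, where Elovl3 was not tested, and 147 after centring, as in the reported analysis, where the adjusted p of Elovl3 was 0.324. Rescaling without the 10 most abundant loci, chosen for single genes after seeing the data, added 0.23 to every log2 fold change for tunicamycin in wild type, 0.14 in the knockout, and 0.21 with DMSO and 0.13 with tunicamycin for knockout against wild type. The 9 called changes kept their sign, while 6 uncalled ones turned: Elovl1, Elovl5, Fads1 and Fads2 between genotypes with DMSO, Elovl5 with tunicamycin in the knockout and Elovl2 between genotypes with tunicamycin. The log2 ratio of summed desaturase FPKM between genotypes with DMSO was -0.09 as deposited and 0.12 after this rescaling, and that of elongase FPKM with tunicamycin was -0.03 as deposited and 0.10 after it. Rescaling to the upper quartile turned 2 uncalled ones, Fads1 and Fads2 with DMSO.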
